A study of Mus musculus with 4 samples.

Results

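The transitional and immature B cell genes *Cd93*, *Cd24a*, *Vpreb3*, *Myb*, *Sox4* and *Rag1* were examined in RNA-seq of spleen B220+ cells that carried either wild-type MIZ-1 (MIZ-1 WT) or MIZ-1 without its POZ domain (MIZ-1 △POZ). These 6 genes were listed by name as genes of young B cells, with earlier results of these data known. Each of them had a row among the 41214 genes of the count table. MIZ-1 △POZ mice came from a cross of *Mb1-Cre* animals, in which Cre is made from the *Cd79a* locus, with *Miz-1 floxPOZ* animals, so that MIZ-1 lost its POZ domain in B cells. MIZ-1 WT mice carried wild-type MIZ-1, and whether they also carried *Mb1-Cre* is not stated in the labels. All lines were on a C57BL/6 background, and the age of the animals behind each library is not given in the labels, while the methods give one age range for the animals of the whole study. The cells were taken from the spleen with a B220 antibody and magnetic beads and were not stimulated. Libraries were made from RNA depleted of ribosomal RNA, kept the strand, and were sequenced from both ends. A B220 selection can also retain cells other than B cells, such as plasmacytoid dendritic cells and some NK cells. There were 2 libraries per genotype, described as biological duplicates, and the p-values given here measure the spread between these 4 libraries.

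B cells leave the bone marrow as immature cells that have just begun to display a B cell receptor, and they complete their maturation in the spleen through transitional stages. Transitional cells carry CD93 and much CD24 on their surface, and both decline as the cells become follicular B cells. Before this, the receptor genes are assembled in precursors by the RAG recombinase, under transcription factors that are largely switched off in mature cells. RNA of such genes in a spleen preparation can therefore mark the youngest B cells, although several are also used by other cells. Which cells this RNA came from was not tested here.

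The MIZ-1 WT libraries held 44452007 (replicate 1) and 43026814 (replicate 2) reads counted on genes. The MIZ-1 △POZ libraries held 46387209 (replicate 1) and 43214303 (replicate 2). Levels are given as CPM, counts scaled to library sizes after TMM normalization. At this depth 1 count corresponded to between 0.0210 and 0.0238 CPM. The quasi-likelihood test of edgeR was run on the 14554 genes that reached 10 counts in 2 or more libraries, and log2 fold changes below 0 mean a lower level in MIZ-1 △POZ.

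*Zbtb17*, which encodes MIZ-1, gave 47.8 and 46.3 CPM in MIZ-1 WT and 37.3 and 38.0 CPM in MIZ-1 △POZ. Both mutant libraries were lower, with a log2 fold change of -0.32 (SE 0.0561, adjusted p = 0.00857, the quasi-likelihood test of edgeR, Benjamini-Hochberg adjusted), and the gene was not called without MIZ-1 WT replicate 1 (-0.30) or with libraries scaled to pan-B cell genes (-0.02). These counts cover all exons of the gene together and do not show whether the exons of the POZ domain were lost. The female-specific RNA *Xist* was at 1.12 and 1.43 CPM in MIZ-1 WT but at 801 and 930.2 CPM in MIZ-1 △POZ, whereas Y-linked *Ddx3y* was at 363 and 354 CPM against 14.3 and 14.2 CPM. The 4 Y-linked genes examined, *Ddx3y*, *Eif2s3y*, *Kdm5d* and *Uty*, were in MIZ-1 △POZ at 3.97% to 5.13% of their MIZ-1 WT means, and the source of this remainder was not tested. The sex of the mice and the genotype thus cannot be told apart in any comparison of these libraries.

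All 6 genes passed the filter on counts, and all 6 had a lower level in the mutant cells with an adjusted p under 0.05, a call made for 18.9% of all tested genes. Each of them was also lower in both MIZ-1 △POZ libraries than in both MIZ-1 WT libraries, as were 37.6% of all tested genes, while 37.2% were higher in both. The study's methods name a log2 fold change of 0.6 in either direction and a p of 0.05, but print the p as above that value, and elsewhere name DESeq2 with Benjamini-Hochberg correction. With a log2 fold change of -0.6 or less and an unadjusted p under 0.05, as these limits were read here, 5 of the 6 were lower, against 5.30% of all tested genes. These 5 also had an adjusted p under 0.05, and the gene outside the limits was *Cd24a*. The median log2 fold change was -0.92 over the 6 genes and -0.01 over all tested genes. Of all tested genes, 2746 were called lower and 3076 (21.1%) higher. Because the 6 genes were chosen with earlier results known, these comparisons with all tested genes describe the list only. In RNA of bulk cells, a smaller number of expressing cells, such as young B cells, and less of each RNA per cell cannot be told apart.

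The first pair of genes encodes the surface proteins by which transitional B cells are recognised. *Cd93* (ENSMUSG00000027435) encodes a C-type lectin-like receptor that is also found on endothelium and on some myeloid cells. It is transcribed from the minus strand of chromosome 2, from 148436640 to 148443563 in GRCm38. Its level was 43.8 and 37.1 CPM in MIZ-1 WT replicates 1 and 2, and 16.9 and 20.04 CPM in MIZ-1 △POZ replicates 1 and 2. The genotypes were well apart, since the higher MIZ-1 △POZ library was still far below the lower MIZ-1 WT library. The mean fell from 40.5 ± 4.73 CPM to 18.5 ± 2.20 CPM (SD, n = 2 each), or to 45.7% of MIZ-1 WT. The log2 fold change was -1.13 (95% CI -1.42 to -0.84, adjusted p = 0.00210, the quasi-likelihood test of edgeR, Benjamini-Hochberg adjusted).

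*Cd24a* (ENSMUSG00000047139) encodes heat stable antigen, a small glycoprotein held in the membrane by a lipid anchor, and red cell precursors express it as well. The gene lies on the plus strand of chromosome 10, from 43578284 to 43584265. It gave 572 and 485 CPM in MIZ-1 WT and 389 and 451 CPM in MIZ-1 △POZ. The groups did not overlap, but MIZ-1 WT replicate 2 and MIZ-1 △POZ replicate 2 were close to each other. The means were 528 ± 61.2 CPM and 419.8 ± 43.6 CPM (SD, n = 2 each). Its log2 fold change of -0.33 (95% CI -0.59 to -0.08) had an adjusted p of 0.0493 in the quasi-likelihood test of edgeR, Benjamini-Hochberg adjusted, just under the threshold of 0.05. The call was lost without MIZ-1 WT replicate 1, at a log2 fold change of -0.21, and without MIZ-1 △POZ replicate 1, at -0.23. It was also lost with a replicate block (-0.33), at a mean of 30 RPM or more (-0.26) and with libraries scaled to pan-B cell genes (-0.03). Over all settings tried, the adjusted p of *Cd24a* ranged from 0.00576 to 0.809, so its decrease was at the limit of what these libraries resolve.

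**Figure D1:**
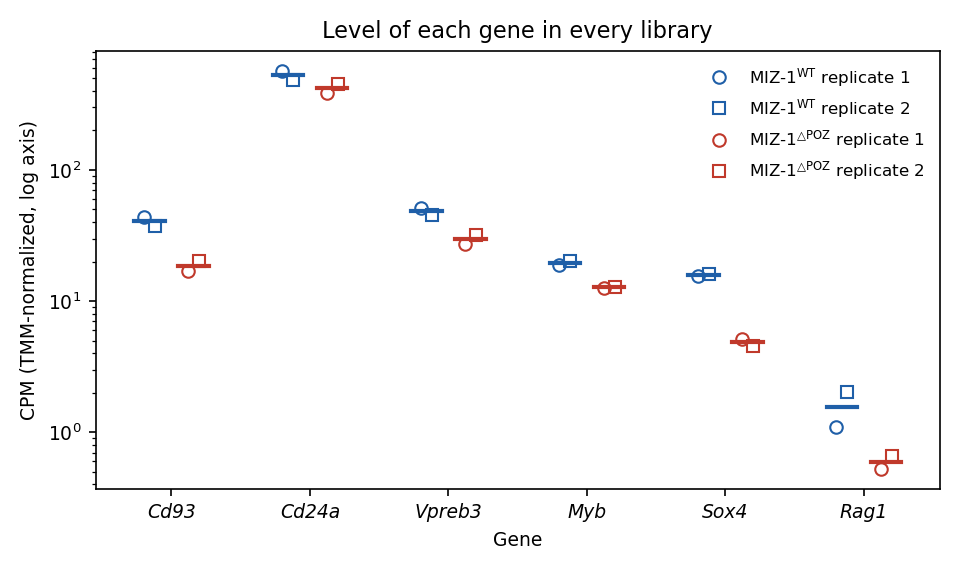
Level of each transitional and immature B cell gene in CPM on a log axis. Circles and squares are replicates 1 and 2, blue is MIZ-1 WT, red is MIZ-1 △POZ and bars are means of 2 libraries. For each gene both red points lie below both blue points, most narrowly for *Cd24a* (451 against 485 CPM).

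*Vpreb3* (ENSMUSG00000000903) encodes an immunoglobulin-like protein that binds newly made receptor chains inside early B cells. It is related in sequence to the VpreB part of the surrogate light chain, which pairs with the heavy chain in precursors. The gene is on the plus strand of chromosome 10, from 75943057 to 75949657. It was measured at 51.5 and 45.6 CPM in MIZ-1 WT and at 27.3 and 31.9 CPM in MIZ-1 △POZ. Both MIZ-1 △POZ libraries were clearly lower, and replicate 1 was the highest library of its genotype in MIZ-1 WT and the lowest in MIZ-1 △POZ. The mean level dropped from 48.6 ± 4.19 CPM to 29.6 ± 3.24 CPM (SD, n = 2 each). This gave a log2 fold change of -0.71 (95% CI -0.96 to -0.47, adjusted p = 0.00461, the quasi-likelihood test of edgeR, Benjamini-Hochberg adjusted).

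Another pair encodes transcription factors of precursor cells. *Myb* (ENSMUSG00000019982) encodes c-MYB, which is required for early B cell development and is present in hematopoietic progenitors and many cycling cells. It lies on the minus strand of chromosome 10, from 21124935 to 21160984. Its level was 18.9 and 20.3 CPM in MIZ-1 WT and 12.6 and 12.9 CPM in MIZ-1 △POZ. Replicates were nearly equal in both genotypes. With means of 19.6 ± 1.03 CPM and 12.8 ± 0.205 CPM (SD, n = 2 each), the log2 fold change was -0.62 (95% CI -0.82 to -0.42, adjusted p = 0.00380, the quasi-likelihood test of edgeR, Benjamini-Hochberg adjusted).

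*Sox4* (ENSMUSG00000076431) encodes an HMG box factor without which B cell development stops at the pro-B cell stage. This gene of a single exon is on the minus strand of chromosome 13, from 28948919 to 28953713. It was at 15.4 and 16.0 CPM in MIZ-1 WT and at 5.15 and 4.58 CPM in MIZ-1 △POZ. Both MIZ-1 △POZ libraries were far below both MIZ-1 WT libraries, and replicates were close to each other. The mean fell from 15.7 ± 0.429 CPM to 4.86 ± 0.402 CPM (SD, n = 2 each), which is 31.0% of MIZ-1 WT. The log2 fold change was -1.69 (95% CI -1.96 to -1.42, adjusted p = 0.000799, the quasi-likelihood test of edgeR, Benjamini-Hochberg adjusted), the lowest of the 6 genes, and 0.447% of all tested genes had a lower value.

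*Rag1* (ENSMUSG00000061311) encodes the subunit of the recombinase that binds and cuts the recombination signals beside V, D and J segments. It is found on the minus strand of chromosome 2, from 101638282 to 101649501. There were 48 and 85 counts in MIZ-1 WT (exact Poisson 95% intervals 35.4 to 63.6 and 67.9 to 105.1) and 25 and 29 counts in MIZ-1 △POZ (16.2 to 36.9 and 19.4 to 41.7). These intervals cover counting error only, and those of MIZ-1 WT replicate 1 and of both MIZ-1 △POZ libraries overlapped. In CPM the values were 1.10 and 2.02 against 0.525 and 0.661. The groups did not overlap, but the MIZ-1 WT replicates were far apart. The log2 fold change of -1.39 had a wide interval (95% CI -2.32 to -0.47, adjusted p = 0.0315, the quasi-likelihood test of edgeR, Benjamini-Hochberg adjusted). It was -0.89 without MIZ-1 WT replicate 2 and -1.23 without MIZ-1 △POZ replicate 1, and in both cases *Rag1* was no longer called. Its adjusted p over all settings ranged from 0.0108 to 0.131.

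To compare levels between genes, CPM was divided by the summed exon length in kb. On this scale MIZ-1 WT means ranged from 205 CPM per kb for *Cd24a* and 56.6 for *Vpreb3* over 6.06 for *Cd93*, 3.28 for *Sox4* and 2.19 for *Myb* to 0.236 for *Rag1*. No ranges of neighbouring genes in this order overlapped between the MIZ-1 WT libraries. *Sox4* had 3.21 and 3.34 CPM per kb in MIZ-1 WT against 2.11 and 2.27 for *Myb*, whereas in MIZ-1 △POZ it had 1.07 and 0.955 against 1.41 and 1.44. Thus *Sox4* was above *Myb* per kb in both MIZ-1 WT libraries and below it in both MIZ-1 △POZ libraries. Overlaps with other genes, described next, were not taken into account in these lengths, and their effect on this order was not tested.

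The strand setting of the counting is not stated, so genes that overlap these 6 were looked at. The lincRNA gene *Gm26735* on the opposite strand covers 54.6% of the exon sequence of *Sox4*. It had 2 and 0 counts in MIZ-1 WT and 0 in both MIZ-1 △POZ libraries. *Myb* shares 6.26% of its exon sequence with the antisense gene *Gm26577*, which had at most 1 count in a library. Reads of these genes and of their antisense partners cannot be told apart without strand information. *Rag1* shares 80 bp with *B230118H07Rik* on the same strand, which was at 0.940 and 1.05 CPM in MIZ-1 WT and at 1.32 and 1.28 CPM in MIZ-1 △POZ, with a log2 fold change of 0.39 that was not called (adjusted p = 0.212). It was called higher with libraries scaled to pan-B cell genes (0.69). Near copies outside these overlaps, of at least 200 bases at 90% identity, were found for *Cd24a*. Its transcripts matched those of the pseudogene *Gm15352* over 259 bp at 92.3% identity, and *Gm15352* had 0 counts in every library. A further match of 218 bp, to *Gm6212*, concerned a gene not analysed here.

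Genes beside the 6 loci gave a local comparison. *Thbd*, which neighbours *Cd93* and encodes the related receptor thrombomodulin, had a log2 fold change of 0.21 (adjusted p = 0.549). On the other side of *Cd93*, *Nxt1* was at 0.00. *Ahi1* and *Hbs1l* flank *Myb* and had log2 fold changes of -0.25 (adjusted p = 0.0739) and -0.02 (adjusted p = 0.756), and *Hbs1l* was at 0.28 and called higher when libraries were scaled to pan-B cell genes. With TMM none of these 4 genes was called by the quasi-likelihood test of edgeR, Benjamini-Hochberg adjusted. The neighbours of *Cd24a*, *1700021F05Rik* (0.24) and *Qrsl1* (0.16), and *Gm5134* beside *Vpreb3* (0.35) were higher in both MIZ-1 △POZ libraries than in both MIZ-1 WT libraries and were not called. *Qrsl1* was called higher at a mean of 30 RPM or more (0.24), and with scaling to pan-B cell genes *Nxt1* (0.31), *1700021F05Rik* (0.55), *Qrsl1* (0.47) and *Gm5134* (0.66) were. *Gm867* beside *Vpreb3* and *Prl5a1* beside *Sox4* had too few counts to be tested. *Cdkal1* next to *Sox4* was lower, from 44.1 and 43.9 CPM to 33.5 and 34.6 CPM, with a log2 fold change of -0.37 that was smaller in size than that of *Sox4*. *Cdkal1* was not called without MIZ-1 WT replicate 1 (-0.37) or with libraries scaled to pan-B cell genes (-0.06). *Traf6* near *Rag1* was at 68.5 and 64.1 CPM in MIZ-1 WT and at 55.8 and 58.5 CPM in MIZ-1 △POZ, with a log2 fold change of -0.21 that turned to 0.09 when libraries were scaled to pan-B cell genes. Its call was lost without either MIZ-1 WT replicate, without MIZ-1 △POZ replicate 1 (-0.26 to -0.17), with a replicate block (-0.21) and at a mean of 30 RPM or more (-0.14). *Rag2*, the partner of *Rag1* within the same locus, gave 1 and 6 counts in MIZ-1 WT and 0 in both MIZ-1 △POZ libraries. The exact Poisson 95% interval of 0 counts reaches 3.69 counts. *Rag2* was too low to be tested.

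Genes of the precursor stages were detected unevenly, with the surrogate light chain genes, *Rag2* and *Erg* near 0 and *Dntt*, *Il7r* and *Lef1* at several CPM in both genotypes. Of 8 precursor B cell genes, 3 had enough counts for the test and none was called in either direction by edgeR at an adjusted p under 0.05, nor at an unadjusted p under 0.05, nor by DESeq2. *Dntt*, which encodes the polymerase that adds bases at V(D)J joints, was at 4.19 and 5.33 CPM in MIZ-1 WT and at 4.58 and 2.62 CPM in MIZ-1 △POZ, so the groups overlapped. Without MIZ-1 △POZ replicate 1 it was called, with a log2 fold change of -0.86. *Il7r*, the receptor for the cytokine that drives precursors to divide, was at 9.79 and 9.56 CPM against 9.75 and 11.1 CPM. The surrogate light chain genes *Vpreb1* and *Igll1* did not exceed 0.294 CPM in any library, and *Vpreb2* had 0 counts throughout.

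The ends that RAG cuts are joined by enzymes of general DNA repair, which most cells make. Of 11 V(D)J end joining genes, 1 was lower, 2 were higher and 8 were not called, and the median log2 fold change was 0.09. The called shares were not above those of all tested genes (18.9% lower and 21.1% higher), and a difference from *Rag1* was not tested. The gene called lower was *Polm*, a polymerase used at light chain joints, which went from 23.2 and 21.4 CPM to 12.1 and 15.5 CPM. Those called higher were *Xrcc5*, which encodes KU80, and *Hmgb2*, a chromatin protein that is also abundant in dividing cells. *Hmgb2* was at 31.0 and 29.8 CPM in MIZ-1 WT and at 60.6 and 59.2 CPM in MIZ-1 △POZ. *Polm* was not called without MIZ-1 WT replicate 1, at a log2 fold change of -0.63 against -0.69 with all libraries. *Xrcc5* was not called without either MIZ-1 WT replicate (log2 fold change 0.30 to 0.31). With libraries scaled to pan-B cell genes, which moved the median of all tested genes from -0.01 to 0.30, 9 of these genes were called higher.

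Factors that establish the B lineage act before and during the stages at which the 6 genes are used. Of 13 early B lineage factors, 8 were called lower, 5 were not called and none was higher by edgeR, also at an unadjusted p under 0.05 and by DESeq2, with a median log2 fold change of -0.36. *Ebf1*, which opens the B cell program, was at 309.8 and 299.9 CPM in MIZ-1 WT and at 207 and 229 CPM in MIZ-1 △POZ. *Runx1*, a factor of progenitors and lymphocytes, went from 68.9 and 62.2 CPM to 37.0 and 44.1 CPM. *Foxo1*, which activates the *Rag* genes, was at 54.9 and 49.3 CPM against 30.7 and 40.5 CPM. In these 3 genes the MIZ-1 △POZ libraries were below the MIZ-1 WT libraries and replicate 1 was the lower of them. *Tcf3*, which encodes E2A, was not called (142 and 140.2 CPM against 142 and 157 CPM). Without MIZ-1 WT replicate 1 or without replicate 2, 3 of the 13 were called lower and *Foxo1* was not (-0.47 and -0.62), while the share of all tested genes called lower was 5.75% and 7.59%. The log2 fold change of *Pax5*, not called either, was then -0.43 and -0.48 against -0.46 with all libraries. Without MIZ-1 △POZ replicate 1, *Tcf3* was called higher (log2 fold change 0.16). Scaled to pan-B cell genes, which include *Ebf1* and *Pax5*, 2 were called lower and 4 higher, beside a median of all tested genes of 0.30.

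**Figure D2:**
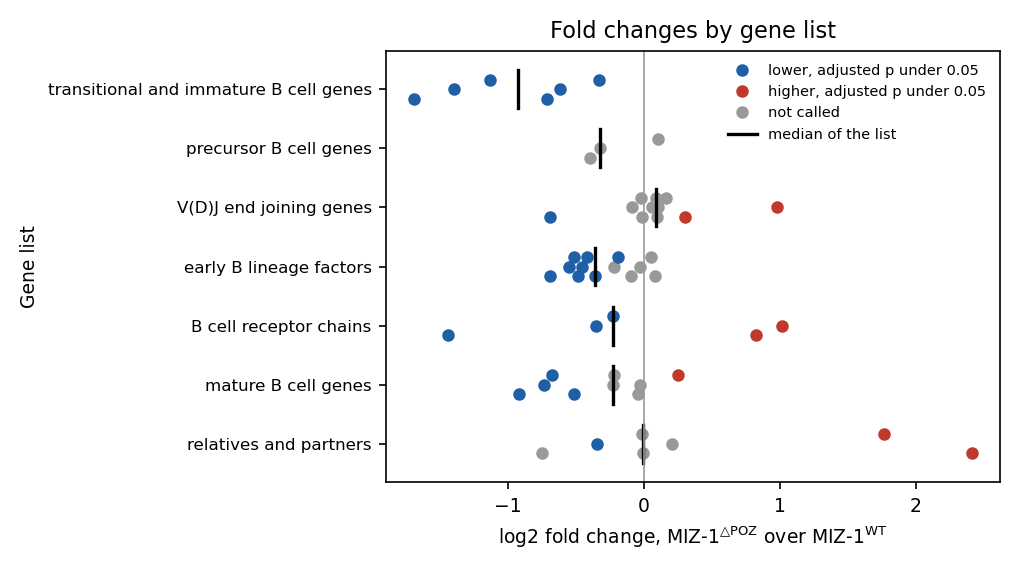
Log2 fold change of MIZ-1 △POZ over MIZ-1 WT for each tested gene of the 6 transitional and immature B cell genes and of 6 lists of related genes. Points are genes, blue and red are calls at an adjusted p under 0.05, and black bars are list medians. The bar of the transitional and immature B cell genes is at -0.92 and that of the early B lineage factors at -0.36; under scaling to pan-B cell genes 4 of these factors are called higher.

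Genes of mature B cells were used to see whether the decrease was shared with later stages. Of 9 mature B cell genes in the table, 4 were lower, 1 was higher and 4 were not called. Their median log2 fold change was -0.23. Of all tested genes, 18.9% were called lower and 21.1% higher. Those of the list called lower were *Fcer2a*, *Klf2*, *Tnfrsf13c* and *Ccr7*. *Tnfrsf13c* had a log2 fold change of -0.68 (-0.77 to -0.37 over the alternatives), and *Ccr7* one of -0.51 (-0.58 to -0.21). *Fcer2a*, the CD23 gene of follicular B cells, was at 238 and 247 CPM in MIZ-1 WT and at 123 and 168 CPM in MIZ-1 △POZ. *Klf2*, a factor of resting follicular cells, fell from 92.9 and 106.3 CPM to 47.2 and 58.1 CPM, with a log2 fold change of -0.92 that lay between those of *Cd93* and *Vpreb3*. *Cr2*, which encodes CD21 and is highest in marginal zone B cells, was higher, at 2147 and 2169 CPM against 2471 and 2656 CPM. *Cr2* was not called without either MIZ-1 WT replicate or without MIZ-1 △POZ replicate 2 (log2 fold change 0.21 to 0.26). *Fcer2a* lost its call without either MIZ-1 WT replicate, at log2 fold changes of -0.77 and -0.71 against -0.74 with all libraries.

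The chains of the B cell receptor went in both directions. Of 5 genes in this list that were in the table, 3 were lower and 2 higher, and *Ighd*, *Iglc1* and *Iglc3* are not analysed here. *Ighm*, the heavy chain of IgM that immature cells carry, was at 4644 and 5979 CPM in MIZ-1 WT and at 11162 and 10350.7 CPM in MIZ-1 △POZ. *Igkc* rose likewise, from 890.4 and 1151 CPM to 1730.2 and 1895 CPM. *Cd79a*, the locus that carries the Cre allele, was at 336 and 311 CPM against 103 and 135 CPM. *Cd79b* was at 2032 and 2068 CPM against 1708 and 1794 CPM, and its log2 fold change of -0.23 became 0.08 with scaling to pan-B cell genes. *Cd79b* was not called without either MIZ-1 WT replicate (-0.24 and -0.21) or without MIZ-1 △POZ replicate 1 (-0.19).

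Relatives and partners of the 6 genes were examined for the reverse movement. Of 11 such genes, 7 were tested, of which 1 was lower, 2 were higher and 4 were not called, with a median log2 fold change of 0.00. Both genes called higher were relatives of *Myb*. *Mybl1*, which encodes A-MYB of germinal center cells, was at 12.0 and 16.7 CPM in MIZ-1 WT and at 86.4 and 66.4 CPM in MIZ-1 △POZ. *Mybl2*, which encodes the B-MYB of dividing cells, was at 2.61 and 2.74 CPM against 9.998 and 8.177 CPM. Hence the 3 *Myb* family genes did not move together, with log2 fold changes of -0.62 for *Myb*, 2.41 for *Mybl1* (adjusted p = 0.00119) and 1.76 for *Mybl2* (adjusted p = 0.00155) in the quasi-likelihood test of edgeR, Benjamini-Hochberg adjusted. These signs were the same with scaling to pan-B cell genes. *Siglecg*, which encodes a receptor that binds CD24, was lower, at 569 and 574 CPM against 424 and 477 CPM, and was not called without either MIZ-1 WT replicate, at -0.35 and -0.34 against -0.34 with all libraries, or with scaling to pan-B cell genes, at -0.04. *Sox12*, from the same SOX group as *Sox4*, was at 0.688 and 0.833 CPM against 0.315 and 0.592 CPM and was not called.

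Marker lists described the other cells in these preparations. All 10 pan-B cell genes were well detected, with summed levels of 13471 and 13805 CPM in MIZ-1 WT and 11167 and 11540.2 CPM in MIZ-1 △POZ, and *Ms4a1* was the most abundant. Of these, 8 were called lower and 2 were not called, with a median log2 fold change of -0.25. Without MIZ-1 WT replicate 1 or without replicate 2, 3 were called lower, and 5 were without MIZ-1 △POZ replicate 1. The 6 genes were therefore also compared with each library scaled by its pan-B cell genes without *Cd79a*. This scaling moved the median of all tested genes to 0.30, and 602 genes were called lower and 6853 higher, in place of 2746 and 3076.

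With that scaling 5 of the 6 genes were called lower, and *Cd24a* was not, at a log2 fold change of -0.03 (adjusted p = 0.809, with a range of 0.00576 to 0.809 over the alternatives, the quasi-likelihood test of edgeR, Benjamini-Hochberg adjusted). *Cd93* was at -0.83, *Vpreb3* at -0.41, *Myb* at -0.31, *Sox4* at -1.38 and *Rag1* at -1.09. All 6 values were below the shifted median of 0.30. This follows from the TMM fit, because the scaling adds about the same amount to every gene. With this scaling, 3 of the 6 genes were past the limits of -0.6 and 0.05, as many as without MIZ-1 WT replicate 2. The share of all tested genes past these limits was not computed for these settings.

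**Figure D3:**
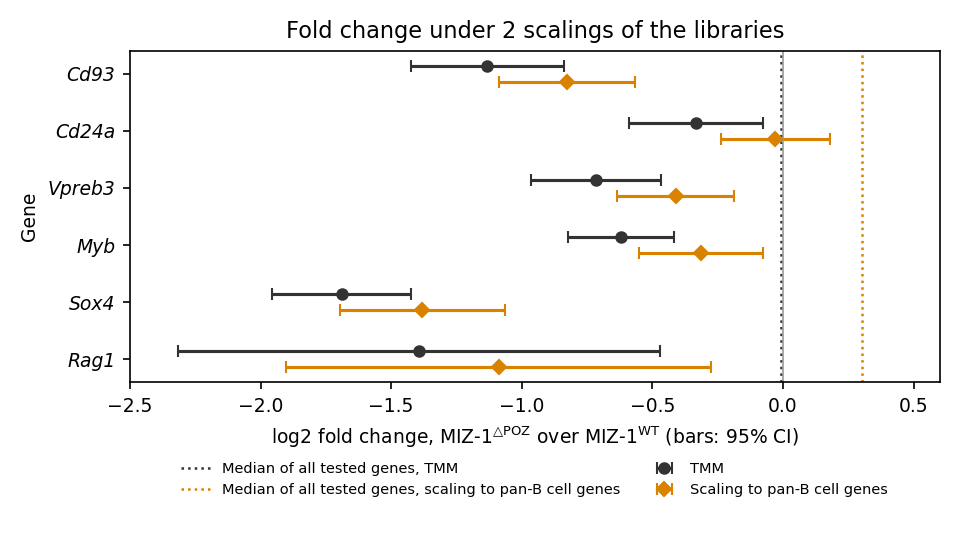
Log2 fold change of MIZ-1 △POZ over MIZ-1 WT with its 95% CI for each transitional and immature B cell gene. Black circles use TMM, orange diamonds scale each library to its pan-B cell genes, and dotted lines are the medians of all tested genes (-0.01 and 0.30). The interval of *Cd24a* includes 0 with the second scaling.

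Markers of other B cell states were also examined, beside 21.1% of all tested genes called higher and 18.9% called lower. Of 9 marginal zone B cell genes 7 were higher and 2 not called, with sums of 3463 and 3428 CPM in MIZ-1 WT against 4064 and 4445.5 CPM in MIZ-1 △POZ and *Cr2* as the most abundant. Without MIZ-1 △POZ replicate 2, 1 marginal zone gene and 1 plasma cell gene were called lower. Of 7 B-1 cell genes 5 were higher and 2 not called (sums of 83.0 and 85.6 against 108.7 and 104.6 CPM, *Spn* the most abundant). The B-1 count dropped to 1 and 2 without MIZ-1 WT replicates 1 and 2, and to 3 without MIZ-1 △POZ replicate 1. Of 8 germinal center genes 7 were higher and *Bcl6* was lower (159 and 165 against 295 and 243 CPM, *Bcl6* the most abundant in MIZ-1 WT). Of 8 plasma cell genes 6 were higher and 2 not called (912 and 1235 against 2740.2 and 2579.6 CPM, *Jchain* the most abundant). All 12 cycling cell genes were higher, with sums of 492 and 480.3 CPM against 1345 and 1173 CPM and *Top2a* as the most abundant. How far these states contributed to the levels of the 6 genes was not tested.

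Macrophages of the spleen can be carried along with B cells. All 15 macrophage markers were called higher, with a median log2 fold change of 1.98. Their summed level was 948 and 1259 CPM in MIZ-1 WT replicates 1 and 2, and 5626 and 3556 CPM in MIZ-1 △POZ replicates 1 and 2, and *Vcam1* was the most abundant. From the lowest to the highest sum, the libraries were thus MIZ-1 WT replicate 1, MIZ-1 WT replicate 2, MIZ-1 △POZ replicate 2 and MIZ-1 △POZ replicate 1. *Cd93*, *Cd24a* and *Vpreb3* ordered the 4 libraries in exactly the reverse way, whereas *Myb*, *Sox4* and *Rag1* were higher in MIZ-1 WT replicate 2 than in replicate 1. That order was shown by 13.8% of all tested genes and by 36.8% of the 5466 that were lower in both MIZ-1 △POZ libraries. The part of macrophage RNA in these results was not tested. Of 8 monocyte markers 6 were called higher and 2 were not called (98.3 and 92.6 against 259 and 356 CPM, *Lyz2* the most abundant).

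Cells that are known to express some of the 6 genes were looked for with their own markers. For endothelium, a source of *Cd93*, 1 of 7 tested genes was lower, 2 were higher and 4 were not called (sums of 323 and 329 CPM in MIZ-1 WT against 312 and 308 CPM in MIZ-1 △POZ). Most of this sum was *Pecam1*, the gene called lower, which B cells also express, and *Emcn* had 0 counts in every library, while *Tie1* and *Tek* had 0 in both MIZ-1 WT libraries and up to 4 counts in a MIZ-1 △POZ library. The other 6 tested endothelial genes had log2 fold changes above 0, and the median of the list was 0.64. *Stab2*, called higher with *Vwf*, was at 10.3 and 12.3 CPM in MIZ-1 WT and at 46.5 and 34.9 CPM in MIZ-1 △POZ. A replicate block left 1 endothelial gene called higher, and a mean of 30 RPM or more left 0. *Pecam1* was not called without either MIZ-1 WT replicate, and its log2 fold change of -0.26 became 0.05 with scaling to pan-B cell genes. Without either of these replicates or without MIZ-1 △POZ replicate 1, 1 endothelial gene was called higher. Red cells had been lysed before the selection. For erythroid cells, a source of *Cd24a*, 1 of 9 tested genes was higher and 8 were not called (50.8 and 63.2 against 43.4 and 120.3 CPM, *Hbb-bs* the most abundant). Without MIZ-1 △POZ replicate 1, 8 of the erythroid genes were called higher, and without MIZ-1 △POZ replicate 2, 1 was called lower. For hematopoietic progenitors, a source of *Myb*, 1 of 3 tested genes was higher and 2 were not called (12.9 and 12.6 against 19.5 and 18.5 CPM, *Flt3* the most abundant), and *Gata2* and *Mecom* had 0 counts in MIZ-1 WT. The share of these cells in each level was not tested.

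Other cells that a B220 selection may hold were examined in the same way. Among 8 plasmacytoid dendritic cell genes 1 was lower, 1 higher and 6 not called (sums of 918 and 850.3 against 717 and 727 CPM), mostly because of *Ly6d*, which B cells express too. Their defining gene *Siglech* was at 45.0 and 45.5 CPM in MIZ-1 WT and at 42.0 and 26.4 CPM in MIZ-1 △POZ. Among 8 NK cell genes 2 were higher and 6 not called (58.4 and 56.1 against 62.4 and 67.4 CPM, *Gzma* the most abundant), and among 13 T cell genes 2 were higher and 11 not called (91.0 and 69.6 against 93.3 and 98.4 CPM, *Lck* the most abundant). Among 8 conventional dendritic cell genes 4 were higher, 1 lower and 3 not called (40.6 and 41.4 against 71.5 and 53.1 CPM, *Itgax* the most abundant), with a median log2 fold change of 0.86. Neutrophil genes were scarce, with 2 of 7 tested genes higher and 5 not called (15.1 and 4.83 against 9.35 and 17.9 CPM, *S100a9* the most abundant). Their median log2 fold change was 1.73. The NK and neutrophil counts called higher were both 1 under the DESeq2 Wald test and under a replicate block. NK cell genes called higher were also 1 with no filter on counts. Scaling to pan-B cell genes gave 4 neutrophil and 3 plasmacytoid genes called higher and 0 plasmacytoid genes called lower. At a mean of 30 RPM or more, 0 T cell and 0 plasmacytoid genes were called higher. Leaving out MIZ-1 WT replicate 1 changed the plasmacytoid genes called lower to 0, the NK cell genes called higher to 1, the conventional dendritic cell genes called higher to 2 and the neutrophil genes to 0. Without MIZ-1 WT replicate 2 both the NK and the neutrophil counts were 1. Without MIZ-1 △POZ replicate 1 there were 3 plasmacytoid and 2 conventional dendritic cell genes called lower, 1 NK cell gene and 4 neutrophil genes called higher. Without MIZ-1 △POZ replicate 2, 2 plasmacytoid genes and 1 neutrophil gene were called higher.

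The genes with the most similar pattern to each of the 6 over the 4 libraries were sought among 11894 other tested protein-coding autosomal genes, by the Euclidean distance between log2 CPM values centred on each gene's mean. Nearest to *Cd93* were *Xylt1* and *Dcdc2c* (distances of 0.0616 and 0.0711 in log2 units). *Xylt1* was at 40.1 and 35.7 CPM in MIZ-1 WT and at 15.5 and 18.3 CPM in MIZ-1 △POZ, the same order of libraries as for *Cd93*. *Vpreb3* was nearest to *Runx1* and *Slc25a37* (0.0335 and 0.0356), and *Runx1* is also among the early B lineage factors above. *Cd24a* was nearest to *Nfat5* and *Cpm* (0.0221 and 0.0255), and *Myb* to *Sh3bp2* and *Gne* (0.0271 and 0.0339). *Sox4* and *Rag1* had no equally close neighbours, with *Slc4a11* and *Arhgap33* at 0.100 and 0.195 from *Sox4*, and *Klra1* and *Camk2n1* at 0.193 and 0.199 from *Rag1*. With 4 libraries such distances describe the libraries and not shared control.

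Promoter sequences from RefSeq (GRCm38.p6) were found for 4 of the 6 genes, *Rag1*, *Myb*, *Vpreb3* and *Sox4*, while *Cd93* and *Cd24a* are named only. The 250 bases before the transcription start were searched on both strands for 6 motifs, and the same was done for all 32851 promoters of the table. The motifs were the octamer ATTTGCAT bound by OCT factors (in 1.601% of all promoters), CAGGTG bound by E2A (17.2%), TGTGGT bound by RUNX factors (14.1%), CCAAT (33.9%), CACGTG (6.02%) and TATAAA (12.4%). The *Myb* promoter held none of them. It consisted of G and C to 81.2%, with 40 CpG dinucleotides in 250 bases, against 50.4% and 1 for *Vpreb3*, 50.8% and 3 for *Rag1* and 50.8% and 11 for *Sox4*. The median over all promoters was 52.4% G and C. A match is a description of the letters in this window and was not tested for binding.

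The promoters of *Vpreb3*, *Rag1* and *Sox4* are printed from 5′ to 3′ because these genes were lower together and differ in the motifs they hold, with motif matches on either strand in capitals. The *Vpreb3* window ends at the start of the shorter annotated transcript and lies in the intron of a longer one, which begins at the gene's first base. In *Vpreb3* (chr10:75948050-75948299, plus strand) an octamer lies from base 45 to base 38 before the start, followed by TGTGGT from base 30 to base 25. The *Rag1* window lies before the start in RefSeq, which is upstream of the start in GENCODE and coincides with that of the longest transcripts of *B230118H07Rik*. In *Rag1* (chr2:101649533-101649782, minus strand) the capitals are CAGGTG, the reverse of CCAAT and TGTGGT at 2 places. In *Sox4* (chr13:28953714-28953949, minus strand) they are CCAAT in either orientation at 3 places. The 14 bases next to the *Sox4* start, which hold another CCAAT, are within the annotated gene and are left out.
Vpreb3: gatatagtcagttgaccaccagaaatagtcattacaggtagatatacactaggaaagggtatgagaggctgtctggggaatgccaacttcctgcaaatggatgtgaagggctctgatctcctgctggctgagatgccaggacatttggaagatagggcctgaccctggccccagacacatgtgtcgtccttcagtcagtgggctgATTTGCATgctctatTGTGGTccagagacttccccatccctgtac
Rag1: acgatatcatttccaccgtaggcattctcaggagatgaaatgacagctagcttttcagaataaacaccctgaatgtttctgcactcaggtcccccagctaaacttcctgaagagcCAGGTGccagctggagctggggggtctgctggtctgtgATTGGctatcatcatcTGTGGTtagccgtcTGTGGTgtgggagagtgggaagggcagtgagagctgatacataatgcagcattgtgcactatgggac
Sox4: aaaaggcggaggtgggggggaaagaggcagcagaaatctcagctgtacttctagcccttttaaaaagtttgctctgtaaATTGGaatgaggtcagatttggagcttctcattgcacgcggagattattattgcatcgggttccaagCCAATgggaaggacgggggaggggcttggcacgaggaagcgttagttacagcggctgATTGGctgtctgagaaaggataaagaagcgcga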

How the data were processed

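The RNA-seq libraries were 2 MIZ-1 WT and 2 MIZ-1 △POZ samples of B220+ splenocytes. The deposited values are raw counts of reads per gene for 41214 genes, which the authors made with HTSeq after trimming with Trimmomatic and alignment to mm10 with TopHat2 (2.1.0 in the processing notes, while another version is given in the study's methods). Reads counted on genes ranged from 43026814 to 46387209. In the count files, 21.1% to 27.2% of all entries had no feature, 0.282% to 0.302% were ambiguous and 42.8% to 44.2% were not unique. Intervals on counts cover counting error only, and the exact Poisson 95% interval of 0 counts reaches 3.69 counts.

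The 14554 genes that reached 10 counts in 2 or more libraries were fitted with edgeR 4.0.16 in R 4.3.3, using TMM and the quasi-likelihood test, and were called at a Benjamini-Hochberg adjusted p under 0.05. Positions and exon lengths are from GENCODE's annotation of GRCm38. The 6 genes and all lists were chosen with earlier results of these data known. Genes named are the 6 genes, any gene of the lists, for each of the 6 genes the 2 genes of the most similar pattern and the nearest protein-coding gene on each side, *Zbtb17*, *Xist* and Y-linked genes. Overlapping genes and near copies were added because they share sequence with one of the 6 genes. The alternatives were DESeq2's size factors, DESeq2 1.42.0 with its Wald test, no filter on counts, a mean level of 30 RPM or more (reads scaled to library size), replicate number as a block, removal of immunoglobulin segments, scaling to pan-B cell genes without *Cd79a*, and leaving out each library. The procedure was tested on simulated data. *Ighd*, *Iglc1*, *Iglc3* and *Ahsp* are not analysed here because the count table has no row under these names. Values of some single genes of the lists are not reported here.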

Additional observations from a re-analysis of the deposited data

How the results depend on the processing

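Of 11 alternatives, the DESeq2 Wald test came with its own size factors and dispersions, and each other one changed a single choice. *Cd93*, *Vpreb3*, *Myb* and *Sox4* were called lower in every alternative that tested them, with log2 fold changes of -1.25 to -0.83, -0.82 to -0.41, -0.67 to -0.31 and -1.78 to -1.38. Over all results, 1312 kept their call status or stayed near the reported value, 63 lost a call, 34 gained one and 77 counts moved. A further 12 changed direction while called in the main fit or in the alternative. Changes of direction without a call in either fit are among the 1312. An example is *Ikzf3*, at -0.22 with TMM and 0.08 with scaling to pan-B cell genes.

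When genes had to reach a mean of 30 RPM, 6052 genes and 2 of the 6 genes could be tested, and 2746 genes were called. *Cd24a* was at -0.26 and not called, 1 of the 6 genes was called and 1 was past the limits of -0.6 and 0.05. The share of all tested genes past these limits was not computed for any alternative. No precursor gene could be tested, 0 end joining genes were called lower, and 1 relative was called higher. With a replicate block *Cd24a* was at -0.33 and not called. Without immunoglobulin segments, 0 receptor chains were called higher, since *Ighm* and *Igkc* were removed.

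With scaling to pan-B cell genes, *Cd24a* was at -0.03, and 3 of the 6 genes were past the limits of -0.6 and 0.05. Genes called higher were then 1 precursor gene, 9 end joining genes, 4 early B lineage factors and 3 mature genes, and genes called lower were 2 early B lineage factors, 1 receptor chain and 0 relatives. Some log2 fold changes turned positive in genes called with TMM or with this scaling. They were *Xrcc4* 0.29, *Prkdc* 0.29, *Irf4* 0.21, *Irf8* 0.12, *Spi1* 0.27, *Cd79b* 0.08, *Cxcr5* 0.26, *H2-Ab1* 0.28, *Hbs1l* 0.28, *Traf6* 0.09, *Ms4a1* 0.08 and *Pecam1* 0.05. This scaling adds about the same amount to every gene.

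Leaving out each library, where a lone library is assumed to vary like the other genotype's, gave -0.45 to -0.21 for *Cd24a* and -1.77 to -0.89 for *Rag1*, 3 to 5 genes past the limits of -0.6 and 0.05 and 2204 to 5739 genes called. Genes called lower ranged from 0 to 1 for precursor, end joining and relatives' lists and from 3 to 8 for early B lineage factors. Genes called higher ranged from 1 to 3 for end joining, and from 0 to 1 for early B lineage factors and mature genes. The cause was not tested.

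The number of libraries limits these comparisons. Depth limits *Rag1*, *Rag2* and the surrogate light chain genes. Sex, any difference in Cre between genotypes and the mixture of cells cannot be told apart from genotype, and the strand setting of the counts is unknown.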
